A study of Mus musculus with 69 samples.

Results

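The first segment of the mouse proximal tubule (PT-S1) was compared with the cortical collecting duct (CCD) in sham-operated mice, from RNA-seq libraries of tubules dissected out of the kidney. The libraries were chosen by their labels alone (segment, sham operation and time), which gave 35 of the 69 libraries of the series. PT-S1 at 24 h held 8 libraries of 3 animals, CCD at 24 h held 8 libraries of 4 animals, PT-S1 at 72 h held 12 libraries of 5 animals, and CCD at 72 h held 7 libraries of 4 animals. The mice of all 4 groups were labelled wild type (WT), male and C57BL/6 (Taconic), 7 weeks old, with a sham operation as the only treatment, and the hours count from that operation. No group came from animals without surgery, the labels do not describe the sham procedure or the hour of day of sampling, and they do not say whether PT-S1 and CCD tubules came from the same mice. The 34 libraries of mice that had lost a kidney by unilateral nephrectomy were not used. Segment identity was taken as what was found at 24 h and found again at 72 h.

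The proximal tubule takes back most of the filtered glucose, phosphate, amino acids, bicarbonate and protein, through a brush border rich in sodium-coupled carriers and endocytic receptors, and it makes glucose and burns fatty acids. The cortical collecting duct is the last site in the cortex where urine is adjusted. Its principal cells absorb sodium through the epithelial sodium channel under aldosterone and water through aquaporins under vasopressin, and its intercalated cells secrete acid or base through proton pumps and anion exchangers.

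Levels are given in TPM, in which the reads of a gene are divided by gene length and every library has the same total, so that the depth of the libraries is unknown and no counting error could be computed. A level is the mean over the animals of a group, with its SD after ±, over 3 PT-S1 and 4 CCD animals at 24 h and 5 PT-S1 and 4 CCD animals at 72 h. A difference is PT-S1 minus CCD on the log2(TPM + 1) scale, with its SE after ±. It comes from limma on animal means with Benjamini-Hochberg adjustment. The scale shrinks the differences of genes at low levels, and values in parentheses after levels are differences at 24 h and 72 h. A gene was called at an adjusted p under 0.05, and where values are paired, 24 h comes first. PT-S1 and CCD values come from separate tables, so that segment and table cannot be told apart in any level set across them. The labels separate the animals by number only, and p-values measure the spread between these animals.

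Some libraries stood apart from the rest of their group. Within its group, the median correlation of a library with the rest was under 0.92 for 3 libraries. These were 1 of PT-S1 animal 1 at 24 h (0.843), 1 of PT-S1 animal 3 at 24 h (0.894) and 1 of CCD animal 1 at 72 h (0.906). Of PT-S1 at 72 h, 1 library of animal 3 was high in collecting duct transcripts, with 10 intercalated cell markers summing to 54.7 TPM where the other library of this animal had 5.91 TPM and the 5 animals a median of 8.68 TPM. Likewise, 1 library of PT-S1 animal 5 at 72 h was high in markers of the later proximal segments, with 7 S2 markers summing to 16950 TPM where its other 2 libraries had 5158 and 3918 TPM and the group median was 2326 TPM. CCD animal 2 at 24 h was high in thick ascending limb markers, which summed to 10551 TPM in 1 of its libraries and to 1901 TPM in the other. Without the 3 libraries of low correlation, the genes called at both times numbered 1723 higher in PT-S1 and 8139 higher in CCD, where all libraries gave 1689 and 7831, and without the library high in thick ascending limb markers they numbered 1686 and 7810. They were 1690 and 7698 without the library of animal 3, and 1688 and 7791 without that of animal 5.

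The 6 segment markers separated the segments in every animal. Slc5a2 (ENSMUSG00000030781) encodes SGLT2, the sodium-glucose carrier of the early proximal tubule, and measured 3065, 3245 and 2436 TPM in the PT-S1 animals and 3.04, 0.580, 1.14 and 1.68 in the CCD animals at 24 h. The values at 72 h were 2234, 3155, 1654, 3240.1 and 2546 TPM in PT-S1 and 1.48, 4.99, 0.420 and 0.200 TPM in CCD. The difference was 10.30 ± 0.25 at 24 h (adjusted p = 3.52e-10) and 10.13 ± 0.41 at 72 h (adjusted p = 2.29e-09), and no CCD animal came near a PT-S1 animal. For Slc34a1 (ENSMUSG00000021490), the main renal phosphate carrier, the levels were 9699.8, 9553 and 7993 TPM in the PT-S1 animals and 33.1, 21.6, 10.4 and 56.0 in the CCD animals at 24 h. In PT-S1 at 72 h they were 6237, 9559, 4153, 7786 and 9189 TPM, against 41.2, 24.9, 5.02 and 2.54 TPM in CCD. No PT-S1 animal was below 4153 TPM and no CCD animal above 56.0 TPM, with differences of 8.64 ± 0.37 and 9.18 ± 0.62, so that a trace of this proximal transcript was present in each CCD animal. Lrp2 (ENSMUSG00000027070) encodes megalin, the endocytic receptor of the brush border, and its levels were 161, 73.6 and 102 TPM in the PT-S1 animals and 1.06, 0.630, 0.340 and 0.940 in the CCD animals at 24 h. Levels at 72 h were 73.0, 93.4, 69.9, 105 and 98.7 TPM in PT-S1 and 1.24, 0.530, 0.0700 and 0.0400 TPM in CCD. Its differences were 5.91 ± 0.23 and 5.99 ± 0.22.

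Among the collecting duct markers, Aqp2 (ENSMUSG00000023013), the water channel regulated by vasopressin, measured 0.0130, 0.0350 and 0.237 TPM in the PT-S1 animals and 10222, 34046, 33734 and 12023 in the CCD animals at 24 h. At 72 h the PT-S1 animals were at 0.330, 0, 1.00, 0.187 and 0.0130 TPM and the CCD animals at 15339.5, 27745, 9362 and 11081 TPM. Its differences of -14.12 ± 0.41 and -13.53 ± 0.29 were the largest of any gene tested at either time, with adjusted p = 1.12e-09 and 1.02e-10. Avpr2 (ENSMUSG00000031390), the vasopressin receptor that drives this channel to the membrane, was at 0.0330, 0 and 0.0470 TPM in the PT-S1 animals and 950.3, 1005, 1183 and 846 in the CCD animals at 24 h. The values at 72 h were 0, 0.0150, 0.205, 0.0770 and 0.0130 TPM in PT-S1 and 1200.3, 1276, 878 and 973 TPM in CCD. Its differences were -9.91 ± 0.14 and -9.98 ± 0.14, with no overlap of the groups. Scnn1b (ENSMUSG00000030873), the beta subunit of the epithelial sodium channel, gave 0, 0 and 0.0400 TPM in the PT-S1 animals and 1116, 1050.1, 1019 and 1079.6 in the CCD animals at 24 h. In PT-S1 at 72 h they were 0.0100, 0, 1.5, 0 and 0 TPM, against 886, 931, 1125 and 1195 TPM in CCD. Its differences were -10.04 ± 0.11 and -9.77 ± 0.23, and PT-S1 animal 3 at 72 h was the animal with 1.5 TPM, the highest of the PT-S1 animals. The markers therefore matched the labelled segment in every animal of the 4 groups.

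**Figure D1:**
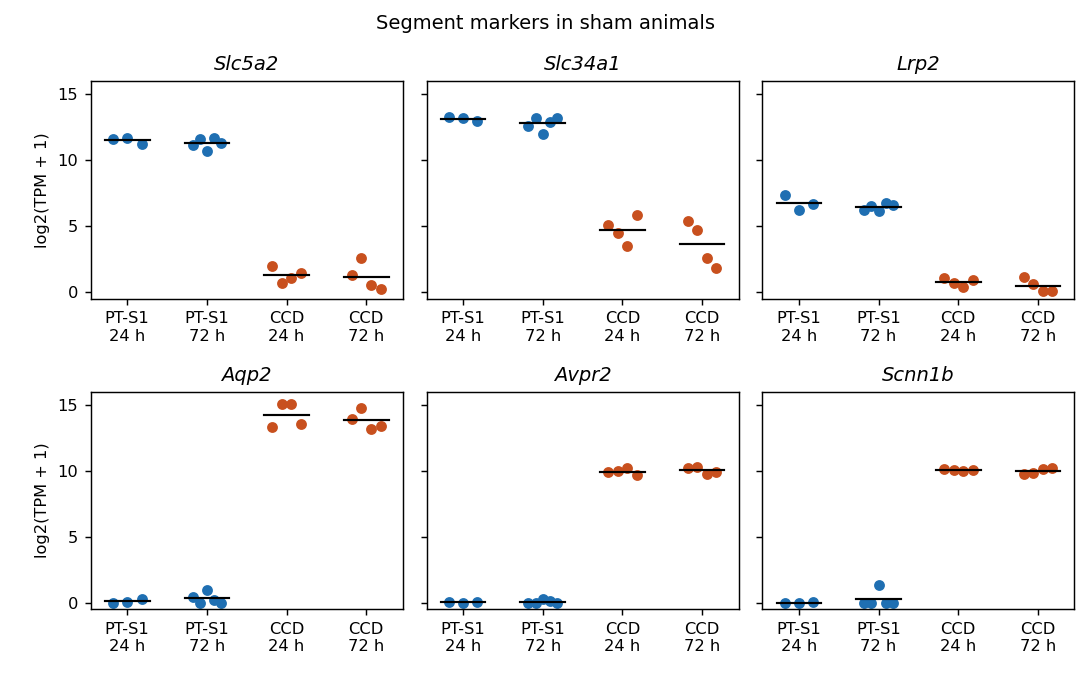
Level of the 6 segment markers in each sham animal as log2 of its mean TPM plus 1, with a point for each animal and a bar for the group mean. The 3 proximal markers in the upper row are high in the PT-S1 animals, the 3 collecting duct markers in the lower row are high in the CCD animals, and no PT-S1 animal overlaps a CCD animal.

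Most expressed genes differed between the segments, and more of them were higher in CCD. At 24 h, 13779 genes were tested, of which 2080 (15.1%) were called higher in PT-S1 and 8791 (63.8%) higher in CCD. At 72 h, 13580 genes were tested, with 1942 (14.3%) called higher in PT-S1 and 8768 (64.6%) in CCD. Of the 13202 genes tested at both times, 1689 (12.8%) were called higher in PT-S1 at both and 7831 (59.3%) higher in CCD at both. The differences of these genes had a Pearson correlation of 0.969 between the times, given as a description across genes, which are not independent replicates. Of the 10540 genes called at 24 h and the 10533 called at 72 h, 9520 were called with the same sign, which is 90.3% of the 24 h calls and 90.4% of the 72 h calls, and 22 genes (0.167% of those tested) were called with opposite signs.

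The split between the directions depended on the scaling, and the median difference of all genes tested lay below 0, at -0.79 at 24 h and -0.77 at 72 h. After median-ratio scaling, which moved these medians to -0.15 and -0.11, 3079 genes (23.3%) were called higher in PT-S1 at both times and 4051 (30.7%) higher in CCD. The share of agreeing calls that were higher in PT-S1 was 17.7% in TPM as deposited, 43.2% after median-ratio scaling and 44.5% after quantile normalization. A narrower set required in addition a difference of at least 2 log2 units at both times and that every animal of 1 segment lay above every animal of the other. It held 714 genes higher in PT-S1 (5.41%) and 1506 higher in CCD (11.4%), and all of them were called in the same direction after median-ratio scaling. They were chosen from these data for large differences, so that their kept calls say little beyond that choice. The same rule applied to the scaled values gave 955 and 1013 genes, and after quantile normalization 974 and 957.

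**Figure D2:**
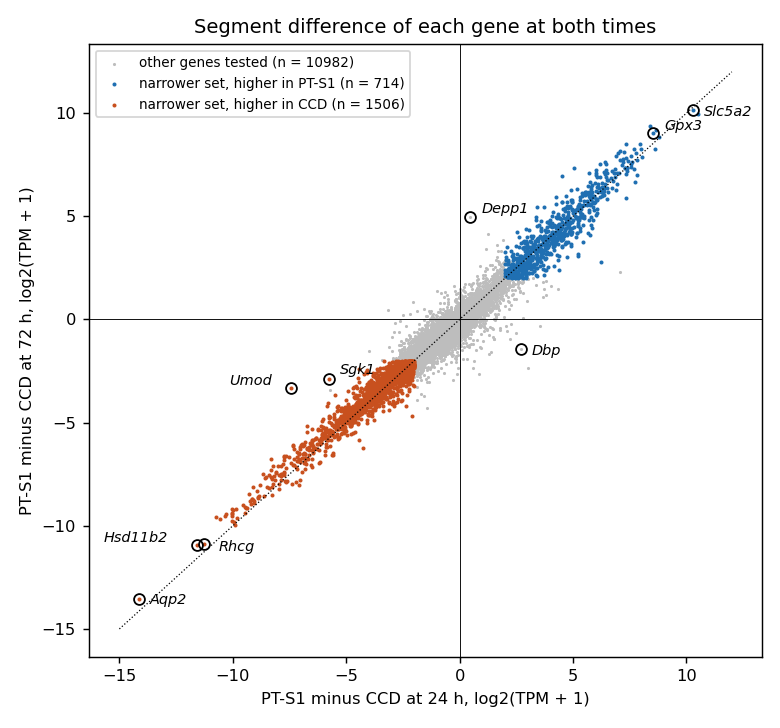
Difference of each of the 13202 genes at 24 h (horizontal axis) and 72 h (vertical axis), PT-S1 minus CCD on the log2(TPM + 1) scale, with the narrower sets of 714 and 1506 genes in colour and the line of equal values dotted. Slc5a2 and Gpx3 lie at the upper right end, Aqp2, Rhcg and Hsd11b2 at the lower left end, and Depp1, Dbp, Sgk1 and Umod lie off the line (Depp1 0.48 and 4.98, Dbp 2.70 and -1.45, Sgk1 -5.75 and -2.89, Umod -7.44 and -3.34).

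In TPM as deposited, fewer genes reached 1 TPM in PT-S1 than in CCD, and its highest genes held a larger share. The genes were not counted again after median-ratio scaling. Their lower number therefore cannot be told apart from that larger share, or from the mixture of cell types in the duct. The number of genes at 1 TPM or more per animal was 11906 ± 390.4 in PT-S1 and 13742 ± 52.2 in CCD at 24 h, and 11894 ± 285 against 13507 ± 361 at 72 h. The 10 highest genes held 18.7 ± 2.12% of the TPM of a PT-S1 animal and 9.40 ± 0.972% of a CCD animal at 24 h, and 23.5 ± 3.07% against 8.80 ± 1.13% at 72 h. Mitochondrially encoded genes held 4.67 ± 1.86% against 2.40 ± 0.172% at 24 h and 9.36 ± 4.89% against 2.68 ± 0.760% at 72 h. Some of these genes, described below, were listed at 0 in all libraries used and add nothing to the share. Without PT-S1 animal 3 the 24 h difference of this mitochondrial share was 1.2 percentage points, where all animals gave 2.27 points. The exact permutation p was 0.0667 whichever PT-S1 animal was left out at 24 h, because fewer animals remain. The groups did not overlap in any of these measures at either time. The two-sided exact permutation p over animals was 0.0286 for each measure at 24 h, the smallest this design allows, and 0.00794 for the first pair of measures and 0.0238 for the mitochondrial share at 72 h, and all 6 adjusted values were 0.0286 or lower.

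The genes that separated the segments most were ranked by the smaller of both differences, among those at 50 TPM or more in the higher segment. On the PT-S1 side the 12 highest were Slc5a2, Spp2, Alpl, Slc34a1, Gpx3, Gatm, Cyp2d26, Miox, Fam151a, Slc34a3, Prodh2 and Spink1. Gpx3, the glutathione peroxidase that the kidney secretes into plasma, was the most abundant transcript of PT-S1 and measured 76498, 104050 and 73985 TPM in the PT-S1 animals and 393, 147, 152 and 319 in the CCD animals at 24 h. Levels at 72 h were 75219.6, 100566, 58877, 105455 and 84096 TPM in PT-S1 and 322, 287, 113 and 71.0 TPM in CCD. No PT-S1 animal was below 58877 TPM and no CCD animal above 393 TPM, and its differences were 8.53 ± 0.33 and 9.02 ± 0.38. Spp2, a secreted phosphoprotein, measured 2824 ± 838 and 2443 ± 701 TPM in PT-S1 and 0.944 ± 0.552 and 2.71 ± 3.95 in CCD (10.53 ± 0.25 and 9.93 ± 0.57). Alkaline phosphatase of the brush border, encoded by Alpl, measured 1116 ± 212 and 841 ± 244 TPM in PT-S1 and 1.61 ± 0.934 and 0.924 ± 1.01 in CCD (8.79 ± 0.26 and 8.83 ± 0.34). Gatm, which makes the creatine precursor guanidinoacetate, was at 2332 ± 347 and 3569 ± 536 TPM in PT-S1 and 7.26 ± 6.33 and 5.53 ± 5.17 in CCD (8.4 ± 0.46 and 9.38 ± 0.41). Miox, the enzyme that opens the ring of myo-inositol, was at 5512 ± 486 and 7037 ± 619 TPM in PT-S1 and 24.2 ± 11.1 and 43.8 ± 54.3 in CCD (7.98 ± 0.34 and 8.26 ± 0.67). Prodh2, which breaks down hydroxyproline, gave 302 ± 64.4 and 415 ± 58.3 TPM in PT-S1 and 0.433 ± 0.439 and 0.684 ± 0.836 in CCD (7.77 ± 0.24 and 8.08 ± 0.26).

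Slc34a3, the second sodium-phosphate carrier of the proximal tubule, measured 287 ± 37.0 and 262 ± 64.1 TPM in PT-S1 and 0.0625 ± 0.0925 and 0.0750 ± 0.0870 in CCD (8.02 ± 0.16 and 7.88 ± 0.18). The cytochrome P450 gene Cyp2d26 was at 537 ± 41.7 and 442 ± 112 TPM in PT-S1 and 0.431 ± 0.400 and 0.415 ± 0.445 in CCD (8.59 ± 0.20 and 8.27 ± 0.24), and reads of the near-identical Cyp2d genes may have been split between them. Fam151a, a membrane protein gene, gave 393 ± 24.2 and 551 ± 144 TPM in PT-S1 and 0.680 ± 0.591 and 0.553 ± 0.578 in CCD (7.96 ± 0.23 and 8.49 ± 0.27). Spink1, a secreted trypsin inhibitor, was at 2479 ± 819.8 and 1143 ± 229 TPM in PT-S1 and 10.1 ± 3.56 and 11.7 ± 17.8 in CCD (7.83 ± 0.21 and 7.71 ± 0.57). The largest adjusted p among these 12 genes at either time was 6.22e-07, for Miox at 72 h.

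On the CCD side, 11 of the 12 highest were Aqp2, Hsd11b2, Rhcg, Avpr2, Scnn1b, Defb1, Mcoln3, Car15, Kcnj1, Scnn1g and Tmem213. Hsd11b2, the enzyme that inactivates glucocorticoids and so keeps the mineralocorticoid receptor open to aldosterone, measured 0.0230, 0 and 0.257 TPM in the PT-S1 animals and 3578, 3186, 3585 and 2852 in the CCD animals at 24 h. At 72 h the PT-S1 animals were at 0, 0, 5.84, 0.0100 and 0.0270 TPM and the CCD animals at 1780.2, 2592, 3524 and 3161 TPM. No CCD animal was below 1780.2 TPM, and the PT-S1 animal at 5.84 TPM was animal 3 at 72 h. Rhcg, an ammonia channel found in both cell types of the duct, gave 0.0130, 0.125 and 0.207 TPM in the PT-S1 animals and 2756, 2479, 2539 and 3046 in the CCD animals at 24 h. The values at 72 h were 0.360, 0, 5.26, 0.140 and 0.143 TPM in PT-S1 and 2664, 3040.3, 2706 and 2466 TPM in CCD. Its differences were -11.26 ± 0.13 and -10.87 ± 0.31, and those of Hsd11b2 were -11.57 ± 0.14 and -10.95 ± 0.40. Defb1, an antimicrobial peptide of the urinary tract, measured 0.395 ± 0.273 and 1.58 ± 2.78 TPM in PT-S1 and 2025 ± 233 and 1504 ± 179.8 in CCD (-10.56 ± 0.15 and -9.70 ± 0.45).

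Kcnj1, which encodes ROMK, the potassium channel of the apical membrane, measured 0.0744 ± 0.0585 and 0.779 ± 1.64 TPM in PT-S1 and 1471 ± 496 and 1039.9 ± 228 in CCD (-10.36 ± 0.23 and -9.53 ± 0.36). Scnn1g, the gamma subunit of the sodium channel, was at 0.0200 ± 0.0346 and 0.234 ± 0.504 TPM in PT-S1 and 1069 ± 84.4 and 877 ± 143 in CCD (-10.03 ± 0.12 and -9.53 ± 0.21). Mcoln3, a cation channel of endosomes, gave 0.0156 ± 0.0190 and 0.00200 ± 0.00447 TPM in PT-S1 and 949 ± 243 and 804 ± 71.0 in CCD (-9.83 ± 0.20 and -9.61 ± 0.11). The membrane-bound carbonic anhydrase Car15 gave 0.576 ± 0.234 and 1.58 ± 2.78 TPM in PT-S1 and 2771 ± 871 and 1259 ± 209 in CCD (-10.75 ± 0.23 and -9.56 ± 0.36). Tmem213, a small membrane protein gene, was at 0.369 ± 0.434 and 2.21 ± 2.82 TPM in PT-S1 and 1375 ± 136 and 1444 ± 154 in CCD (-10.02 ± 0.19 and -9.43 ± 0.37). The largest adjusted p among these 11 genes was 6.39e-09, for Defb1 at 72 h.

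Promoter windows were read from RefSeq for these genes, and 20 of 24 had one, because the letters of known proximal and collecting duct regulators could then be looked for beside the levels. The windows run 300 bases, from 250 before to 50 after the annotated start, and the stretches shown end 51 bases before the start, in GRCm38.p6, 5′ to 3′ on the strand of the gene. The 3 stretches with AGATAA are shown because genes high in either segment held these letters, and that of Avpr2 because it was the only window of these genes with CAAAGNCCA. Capitals mark AGATAA, recognised by GATA factors, in the proximal genes Miox and Spp2 and in Aqp2, and CAAAGNCCA, recognised by HNF4 factors, in Avpr2, and in Miox, Aqp2 and Avpr2 the letters were found on the opposite strand. Miox lies at chr15:89334223-89334422, Spp2 at chr1:88406760-88406959, Aqp2 at chr15:99578806-99579005 and Avpr2 at chrX:73891852-73892051, all on the plus strand.
Miox: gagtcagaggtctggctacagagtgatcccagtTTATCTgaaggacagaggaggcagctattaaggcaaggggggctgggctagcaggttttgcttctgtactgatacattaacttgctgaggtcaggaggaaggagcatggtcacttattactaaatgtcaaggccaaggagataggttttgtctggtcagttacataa
Spp2: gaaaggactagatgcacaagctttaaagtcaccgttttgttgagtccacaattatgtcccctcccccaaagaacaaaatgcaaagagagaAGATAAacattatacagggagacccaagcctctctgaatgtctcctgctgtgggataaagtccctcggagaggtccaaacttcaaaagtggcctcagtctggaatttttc
Aqp2: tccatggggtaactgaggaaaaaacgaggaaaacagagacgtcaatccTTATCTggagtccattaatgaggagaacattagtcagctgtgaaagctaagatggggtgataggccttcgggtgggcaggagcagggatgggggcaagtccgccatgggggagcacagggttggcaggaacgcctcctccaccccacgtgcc
Avpr2: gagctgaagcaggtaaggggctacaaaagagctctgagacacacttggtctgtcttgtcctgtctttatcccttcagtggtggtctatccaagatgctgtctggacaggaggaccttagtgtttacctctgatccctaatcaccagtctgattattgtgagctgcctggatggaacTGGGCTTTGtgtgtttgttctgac

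The match of Miox began 217 bases before the start, that of Spp2 160 bases before, that of Aqp2 202 bases before and that of Avpr2 74 bases before. Over both strands, CAAAGNCCA was found in 4.42% of the 724 windows of the narrower set higher in PT-S1, in 1.85% of the 1622 windows of the set higher in CCD, in 1.67% of the 12744 windows of all genes tested at both times and in 1.98% of all 32851 windows. AGATAA was in 9.53%, 7.34%, 6.44% and 11.2% of the same sets of windows, GCCNNNGGC, recognised by AP-2 factors, in 22.1%, 25.5%, 24.4% and 16.6%, and AACCGG, recognised by grainyhead factors, in 7.04%, 9.99%, 10.9% and 6.83%. None of these strings contains another, GCCNNNGGC reads the same on both strands, a gene can have several windows, and the shares are a description of letters, with no test of binding.

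The carriers for filtered sugar, phosphate and small anions were mostly higher in PT-S1. Of 23 listed genes, 16 of the 23 members tested at both times were called higher in PT-S1 at both and 2 in CCD (16 and 2 after median-ratio scaling), with median differences of 4.91 and 4.14. Among all genes tested at both times, 12.8% were called higher in PT-S1 and 59.3% in CCD, with median differences of -0.79 and -0.77 over all genes tested at each time. After median-ratio scaling these shares were 23.3% and 30.7%, and the counts of each list below can be read against them. Slc2a2, the basolateral glucose carrier GLUT2, measured 272 and 237 TPM in PT-S1 and 1.23 and 1.2 in CCD (6.78 ± 0.20 and 6.71 ± 0.27). Slc5a12, a sodium-coupled lactate carrier, was at 306 and 237 TPM in PT-S1 and 0.352 and 0.274 in CCD (7.57 ± 0.26 and 7.54 ± 0.17). Slc13a1, a sulphate carrier, was at 567 and 271 TPM in PT-S1 and 2.15 and 0.858 in CCD (7.30 ± 0.31 and 7.35 ± 0.31). Slc37a4, which brings glucose-6-phosphate into the endoplasmic reticulum, was at 886 and 687 TPM in PT-S1 and 35.3 and 35.2 in CCD (4.57 ± 0.16 and 4.2 ± 0.23). Slc2a1, the glucose carrier GLUT1, was 1 of the 2 genes higher in CCD, at 11.8 and 12.2 TPM in PT-S1 and 502 and 526 in CCD (-5.38 ± 0.16 and -5.31 ± 0.16). The other was the monocarboxylate carrier Slc16a7, at 0.274 and 0.288 TPM in PT-S1 and 126 and 136 in CCD (-6.68 ± 0.14 and -6.76 ± 0.18). Slc5a1, the sodium-glucose carrier SGLT1 of the later proximal tubule, had no agreeing call, with differences of -0.69 ± 0.58 and 0.82 ± 0.48. The citrate carrier Slc13a2 was at 119, 131 and 129 TPM in the PT-S1 animals at 24 h and at 4.63, 9.62, 5.69, 11.8 and 46.5 TPM at 72 h, above all CCD animals at both times.

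Carriers for amino acids followed the same direction. Of 25 listed genes, 17 of the 23 members tested at both times were called higher in PT-S1 at both and 2 in CCD (18 and 2 after median-ratio scaling), with median differences of 2.87 and 2.44. Cltrn, the collectrin that brings neutral amino acid carriers to the membrane, was the most abundant at 3096 and 3087 TPM in PT-S1 and 19.5 and 15.9 in CCD (7.35 ± 0.17 and 8.48 ± 0.61). Its partner Slc6a19 measured 729 and 473 TPM in PT-S1 and 5.48 and 3.22 in CCD (6.55 ± 0.27 and 6.77 ± 0.24). Slc7a9 and Slc3a1, the subunits of the cystine carrier, had differences of 7.60 ± 0.28 and 7.63 ± 0.29 and of 5.78 ± 0.34 and 6.30 ± 0.63. The basolateral lysine carrier Slc7a7 had 7.37 ± 0.18 and 7.18 ± 0.29. Slc1a5, a glutamine and neutral amino acid exchanger, was 1 of the 2 genes higher in CCD, at 2.88 and 2.14 TPM in PT-S1 and 130.1 and 135 in CCD (-5.10 ± 0.16 and -5.52 ± 0.27). The other was Slc7a5, the light chain of a large neutral amino acid carrier, at 0.0244 and 0.0707 TPM in PT-S1 and 2.48 and 2.94 in CCD (-1.73 ± 0.22 and -1.74 ± 0.29).

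Carriers of drugs and organic ions also lay on the PT-S1 side. Of 33 listed genes, 21 of the 29 members tested at both times were called higher in PT-S1 at both and 3 in CCD (21 and 2 after median-ratio scaling), with median differences of 4.35 and 4.15. The organic anion carrier Slc22a8 measured 391 and 289 TPM in PT-S1 and 0.960 and 0.836 in CCD (7.69 ± 0.31 and 7.31 ± 0.32). The luminal exporter Slc47a1 was at 553 and 357 TPM in PT-S1 and 3.70 and 2.62 in CCD (6.96 ± 0.22 and 7.08 ± 0.50). Slc22a6, the organic anion carrier of the basolateral side, had differences of 6.07 ± 0.33 and 5.16 ± 0.53, and Slc22a12, a urate carrier, 5.45 ± 0.29 and 5.56 ± 0.49. The genes higher in CCD were Slco4a1 at -4.18 ± 0.19 and -3.78 ± 0.21, Slco4c1 at -3.50 ± 0.19 and -2.91 ± 0.18 and Slco3a1 at -0.84 ± 0.25 and -2.36 ± 0.47, of which Slco3a1 had no agreeing call after median-ratio scaling. The Slc22a genes include close copies, among which reads may have been split.

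Genes of protein uptake by endocytosis were mostly higher in PT-S1. Of 21 listed genes, 12 of the 20 members tested at both times were called higher in PT-S1 at both and 4 in CCD (14 and 2 after median-ratio scaling), with median differences of 1.39 and 1.12. Amn, the amnionless protein that anchors cubilin, measured 413 and 328 TPM in PT-S1 and 1.5 and 1.90 in CCD (7.37 ± 0.17 and 7.33 ± 0.38). Cubn itself was at 40.3 and 28.1 TPM in PT-S1 and 0.341 and 0.135 in CCD (4.85 ± 0.17 and 4.66 ± 0.16). The folate receptor Folr1 was at 748 and 834 TPM in PT-S1 and 10.7 and 9.25 in CCD (6.00 ± 0.19 and 7.01 ± 0.46). Lrpap1, the chaperone of megalin, had differences of 2.27 ± 0.11 and 2.36 ± 0.18, and the lysosomal protease Lgmn 3.48 ± 0.14 and 3.59 ± 0.29. Clcn5, the endosomal chloride exchanger mutated in Dent disease, gave 18.9 and 13.6 TPM in PT-S1 and 24.4 and 19.4 in CCD with a call higher in CCD at 24 h that turned to 0.26 after median-ratio scaling and no call at 72 h, and Ocrl, the phosphatase of the same disease family, was higher in CCD with differences of -1.75 ± 0.17 and -1.54 ± 0.19, as was Arrb2 with -1.88 ± 0.14 and -1.08 ± 0.22, which had no agreeing call after median-ratio scaling.

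Proteins of the brush border were also mostly higher in PT-S1. Of 25 listed genes, 20 of the 25 members tested at both times were called higher in PT-S1 at both and 2 in CCD (20 and 1 after median-ratio scaling), with median differences of 3.94 and 3.91. After Alpl, Cdhr5, a cadherin that links microvilli, ranked highest, at 294 and 217 TPM in PT-S1 and 4.63 and 1.68 in CCD (6.06 ± 0.42 and 6.41 ± 0.28). The peptidase Dpep1 was at 356 and 449 TPM in PT-S1 and 4.73 and 2.11 in CCD (6.03 ± 0.28 and 7.27 ± 0.33). Vil1, the actin bundler villin, measured 92.7 and 77.9 TPM in PT-S1 and 0.885 and 0.558 in CCD (5.62 ± 0.22 and 5.75 ± 0.20). Ggt1, which splits glutathione at the membrane, was at 654 and 355 TPM in PT-S1 and 35.2 and 10.5 in CCD (4.95 ± 0.57 and 5.71 ± 0.71). Mme, the peptidase neprilysin, went the other way: it was at 6.64, 3.11 and 4.01 TPM in the PT-S1 animals and 63.3, 71.6, 62.3 and 72.5 in the CCD animals at 24 h. In PT-S1 at 72 h they were 1.98, 4.61, 2.12, 2.37 and 6.03 TPM, against 53.6, 51.7, 69.9 and 76.4 TPM in CCD. Its differences were -3.79 ± 0.18 and -3.92 ± 0.26, and the animals of both segments did not overlap. Eps8, an actin capping protein, was called higher in CCD with differences of -0.85 ± 0.20 and -1.06 ± 0.15, which had no agreeing call after median-ratio scaling.

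Acid-base genes of the proximal tubule had members on both sides. Of 17 listed genes, 6 of the 14 members tested at both times were called higher in PT-S1 at both and 6 in CCD (8 and 3 after median-ratio scaling). The sodium-proton exchanger of the brush border, Slc9a3, was at 46.4 and 34.9 TPM in PT-S1 and 3.48 and 0.183 in CCD (4.24 ± 0.52 and 4.95 ± 0.17). The basolateral bicarbonate carrier Slc4a4 was at 751 and 527 TPM in PT-S1 and 10.7 and 8.21 in CCD (5.73 ± 0.21 and 5.88 ± 0.23). The membrane carbonic anhydrase Car14 was at 383 and 372 TPM in PT-S1 and 1.18 and 0.611 in CCD (7.56 ± 0.32 and 7.92 ± 0.29). Pdzk1, a scaffold for brush border carriers, had differences of 6.98 ± 0.40 and 8.07 ± 0.62. The genes higher in CCD included the anion exchanger Slc4a2, with differences of -1.43 ± 0.21 and -1.91 ± 0.22. They also included the carbonic anhydrases Car12 at -1.52 ± 0.25 and -2.31 ± 0.28 and Car2 at -1.0 ± 0.13 and -0.99 ± 0.13, and Car2 had no agreeing call after median-ratio scaling.

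Genes of glucose production were mostly higher in PT-S1. Of 23 listed genes of gluconeogenesis, fructose and ammonia metabolism, 14 of the 20 members tested at both times were called higher in PT-S1 at both and 3 in CCD (16 and 1 after median-ratio scaling), with median differences of 3.24 and 2.77. Pck1, the enzyme that commits carbon to glucose, measured 7138, 9291 and 6403 TPM in the PT-S1 animals and 65, 25.9, 14.4 and 66 in the CCD animals at 24 h. Levels at 72 h were 911, 1343, 738, 1804 and 2983 TPM in PT-S1 and 45.2, 25.0, 2.07 and 2.90 TPM in CCD. The PT-S1 animals were above all CCD animals at both times, with differences of 7.80 ± 0.49 and 7.01 ± 0.75, and the PT-S1 mean was 7611 TPM at 24 h and 1556 TPM at 72 h. G6pc, the last step of glucose release, was at 787 and 736 TPM in PT-S1 and 3.64 and 2.15 in CCD (7.70 ± 0.38 and 8.25 ± 0.42). Fbp1 was at 3659 and 3702 TPM in PT-S1 and 34.1 and 25.5 in CCD (6.91 ± 0.38 and 7.93 ± 0.54). Pcx, which makes oxaloacetate from pyruvate, had differences of 5.65 ± 0.30 and 4.2 ± 0.26. Higher in CCD were the mitochondrial form Pck2 at 11.9 and 13 TPM in PT-S1 and 63.2 and 59.6 in CCD (-2.37 ± 0.18 and -2.10 ± 0.16), and, with no agreeing call after median-ratio scaling, the transaminase Got1 with differences of -0.76 ± 0.13 and -1.09 ± 0.12.

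Genes of fatty acid oxidation were more often higher in PT-S1, with the largest differences among acyl-CoA synthetases and peroxisomal members. Of 46 listed genes, 27 of the 46 members tested at both times were called higher in PT-S1 at both and 4 in CCD (35 and 2 after median-ratio scaling), with median differences of 0.87 and 0.59. Acsm2 and Acsm1 activate medium-chain fatty acids. Acsm2 measured 5833 and 4311 TPM in PT-S1 and 42.6 and 34.1 in CCD (7.23 ± 0.30 and 8.12 ± 0.69). Acsm1 measured 238 and 264 TPM in PT-S1 and 2.15 and 1.44 in CCD (6.35 ± 0.28 and 7.15 ± 0.42). The peroxisomal genes Acaa1b and Hao2 had differences of 4.39 ± 0.37 and 4.93 ± 0.42 and of 4.75 ± 0.48 and 5.51 ± 0.25, and catalase, encoded by Cat, 2.29 ± 0.16 and 2.05 ± 0.16. Acadm, the medium-chain dehydrogenase of mitochondria, was at 470.5 and 358 TPM in PT-S1 and 263 and 242 in CCD (0.78 ± 0.11 and 0.50 ± 0.17), and Acadl, the long-chain one, at 204 and 135 TPM in PT-S1 and 216 and 192 in CCD without an agreeing call. The carnitine transferase Cpt1a had no agreeing call, with differences of -0.28 ± 0.26 and -0.75 ± 0.26. The muscle form Cpt1b was higher in CCD at 0.267 and 0.0427 TPM in PT-S1 and 14.2 and 8.84 in CCD (-3.33 ± 0.32 and -3.12 ± 0.20). So was the ketone body enzyme Bdh1, at 2.13 and 6.16 TPM in PT-S1 and 13.7 and 28.4 in CCD (-2.77 ± 0.26 and -3.33 ± 0.48).

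Genes of detoxification and antioxidant defence were largely higher in PT-S1. Of 40 listed genes, 26 of the 40 members tested at both times were called higher in PT-S1 at both and 7 in CCD (29 and 4 after median-ratio scaling), with median differences of 2.34 and 1.64. Besides Gpx3 and Cyp2d26, the flavin monooxygenase Fmo1 was at 1057 and 893 TPM in PT-S1 and 6.44 and 4.47 in CCD (7.22 ± 0.31 and 7.63 ± 0.35). The glucuronyltransferase Ugt2b38 was at 1609 and 962 TPM in PT-S1 and 15 and 6.47 in CCD (7.07 ± 0.46 and 7.71 ± 0.59). The epoxygenase Cyp2j5 was at 1089 and 732 TPM in PT-S1 and 9.11 and 7.40 in CCD (6.85 ± 0.33 and 7.31 ± 0.65). Gpx1, the glutathione peroxidase of the cytosol, measured 5512 and 7722 TPM in PT-S1 and 599 and 765 in CCD (3.14 ± 0.13 and 3.38 ± 0.14). Glutathione synthesis was divided, since Gss, its second step, had differences of 3.11 ± 0.13 and 2.59 ± 0.16. Gclc, the catalytic subunit of the step before, was higher in CCD at 71.6 and 48.2 TPM in PT-S1 and 378 and 269 in CCD (-2.66 ± 0.18 and -2.47 ± 0.16). Ephx1, the microsomal epoxide hydrolase, was higher in CCD at 3.12 and 3.46 TPM in PT-S1 and 223 and 173 in CCD (-5.89 ± 0.16 and -5.37 ± 0.17). The soluble form Ephx2 was higher in PT-S1 with 2.00 ± 0.14 and 2.38 ± 0.16. Aldh1a1, a retinal dehydrogenase, was higher in CCD with -2.99 ± 0.26 and -3.15 ± 0.29. Of 37 Cyp genes tested at both times, 19 were called higher in PT-S1 and 14 in CCD, and on the CCD side Cyp7b1, an oxysterol hydroxylase, had the largest difference at 0.0956 and 0.307 TPM in PT-S1 and 68.6 and 67.2 in CCD (-5.98 ± 0.15 and -5.74 ± 0.14), followed by Cyp1a1, an enzyme induced by aryl hydrocarbons, with -5.10 ± 0.16 and -5.19 ± 0.20.

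Vitamin D and calcium genes were called in both directions. Of 19 listed genes, 5 of the 18 members tested at both times were called higher in PT-S1 at both and 7 in CCD (6 and 7 after median-ratio scaling). Cyp24a1, which degrades active vitamin D, was at 230.1 and 140.1 TPM in PT-S1 and 0.196 and 0.0908 in CCD (6.92 ± 0.54 and 6.58 ± 0.56). Cyp27b1, which makes it, was at 27.0 and 14.1 TPM in PT-S1 and 0.260 and 0.00792 in CCD (4.26 ± 0.19 and 3.71 ± 0.29). Gc, the vitamin D binding protein, was at 94.8 and 123 TPM in PT-S1 and 0.0925 and 0.0125 in CCD (6.27 ± 0.23 and 6.64 ± 0.38). The receptor Vdr was higher in PT-S1 with differences of 1.89 ± 0.26 and 0.96 ± 0.29. On the CCD side was Calb1, the calcium buffer calbindin, at 0.444 and 0.921 TPM in PT-S1 and 328 and 385 in CCD (-7.87 ± 0.18 and -7.79 ± 0.32). The calcium channels Trpv6 and Trpv5 had differences of -5.11 ± 0.15 and -4.34 ± 0.18 and of -3.43 ± 0.21 and -3.46 ± 0.23, and the sodium-calcium exchanger Slc8a1 of -3.45 ± 0.14 and -4.05 ± 0.31. Calb1, Trpv5, Slc8a1 and S100g also mark the connecting tubule, the segment that joins the duct, and the 7 markers of that segment summed to 1053 to 1431 TPM in the CCD animals at 24 h and 591 to 3289 TPM at 72 h, and its part in these differences was not tested.

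Genes of water handling and the vasopressin response were called higher in CCD or had no agreeing call. Of 20 listed genes, 0 of the 16 members tested at both times were called higher in PT-S1 at both and 12 in CCD (1 and 8 after median-ratio scaling), with median differences of -2.08 and -2.05. Aqp3, the water and glycerol channel of the basolateral membrane, measured 76.9 and 34.6 TPM in PT-S1 and 3799.7 and 3389 in CCD (-5.61 ± 0.26 and -6.56 ± 0.21). Aqp4 was at 0.0406 and 0.0227 TPM in PT-S1 and 131 and 111 in CCD (-6.95 ± 0.20 and -6.70 ± 0.21). The prostaglandin receptors Ptger1 and Ptger4 had differences of -5.91 ± 0.15 and -5.66 ± 0.18 and of -4.45 ± 0.20 and -4.34 ± 0.19. The cyclooxygenase Ptgs1 was at 2.43 and 3.68 TPM in PT-S1 and 302 and 262 in CCD (-6.60 ± 0.16 and -5.97 ± 0.26). Adcy6, the adenylyl cyclase that acts below the vasopressin receptor, had differences of -2.56 ± 0.17 and -2.60 ± 0.26. The urea carrier genes Slc14a2 and Slc14a1, of the inner medulla and of the vessels and urothelium, were below the level needed for a test in both segments. The aquaporins of the series divided between the segments, since Aqp1 at 106 and 41.3 TPM in PT-S1 and 2.03 and 1.14 in CCD (5.31 ± 0.27 and 4.28 ± 0.39), Aqp7 at 4.12 ± 0.22 and 3.66 ± 0.22 and Aqp11 at 3.39 ± 0.20 and 2.72 ± 0.24 were higher in PT-S1, and Aqp2, Aqp3, Aqp4 and Aqp6 higher in CCD.

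Sodium and potassium transport under aldosterone followed the same pattern. Of 31 listed genes, 3 of the 28 members tested at both times were called higher in PT-S1 at both and 22 in CCD (4 and 17 after median-ratio scaling), with median differences of -2.44 and -2.69. Scnn1a, the alpha subunit of the sodium channel, was at 0.181 and 0.346 TPM in PT-S1 and 298 and 359 in CCD (-7.96 ± 0.17 and -7.97 ± 0.26). In length-scaled TPM its level in CCD was lower than those of Scnn1b and Scnn1g given above. The mineralocorticoid receptor Nr3c2 had 1.89 and 1.71 TPM in PT-S1 and 78.0 and 67.6 in CCD (-4.78 ± 0.14 and -4.67 ± 0.17), and the glucocorticoid receptor Nr3c1 was higher in PT-S1 with differences of 1.49 ± 0.16 and 1.49 ± 0.16. Kcne1, a potassium channel subunit, had differences of -9.19 ± 0.12 and -8.95 ± 0.21, and Stk39, the kinase SPAK, -6.75 ± 0.18 and -6.72 ± 0.16. Nedd4l, the ligase that removes the sodium channel from the membrane, was at 43.4 and 21.0 TPM in PT-S1 and 401 and 354 in CCD (-3.48 ± 0.22 and -3.98 ± 0.18). Sgk1, the kinase that restrains it, was at 18.3 and 58.5 TPM in PT-S1 and 836 and 279 in CCD (-5.75 ± 0.34 and -2.89 ± 0.61). Atp1b1, the beta subunit of the sodium pump, was higher in CCD with differences of -1.35 ± 0.13 and -2.03 ± 0.20, and Prss8, a protease that activates the sodium channel, was higher in PT-S1 with 1.25 ± 0.14 and 0.57 ± 0.14.

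Intercalated cell genes were mostly higher in CCD. Of 37 listed genes, 3 of the 36 members tested at both times were called higher in PT-S1 at both and 31 in CCD (5 and 29 after median-ratio scaling), with median differences of -6.86 and -6.52. The CCD share of these calls can be read against the 59.3% of all genes tested. Foxi1, the transcription factor of this cell type, was at 0.110, 0 and 0.170 TPM in the PT-S1 animals and 588, 612, 472 and 476 in the CCD animals at 24 h. At 72 h the PT-S1 animals were at 0.955, 0, 3.76, 0.0970 and 0.71 TPM and the CCD animals at 500.1, 474, 468 and 653 TPM. No PT-S1 animal exceeded 3.76 TPM, and its differences were -8.95 ± 0.14 and -8.33 ± 0.31. Slc26a4, the pendrin exchanger of the base-secreting type, measured 2.56 and 3.34 TPM in PT-S1 and 1138 and 1147 in CCD (-8.49 ± 0.16 and -8.12 ± 0.30). Slc4a1, the exchanger of the acid-secreting type, was at 0 and 0.383 TPM in PT-S1 and 272 and 259.6 in CCD (-7.97 ± 0.26 and -7.54 ± 0.38). Slc4a9, the basolateral exchanger of the base-secreting type, was at 0.0450 and 1.08 TPM in PT-S1 and 985 and 871 in CCD (-9.87 ± 0.13 and -9.18 ± 0.40). The ammonia channel Rhbg was at 0.125 and 0.564 TPM in PT-S1 and 789 and 892 in CCD (-9.45 ± 0.15 and -9.37 ± 0.25). Atp4a, the gastric proton pump subunit, was at 0.00333 and 0.349 TPM in PT-S1 and 319 and 220.5 in CCD (-8.31 ± 0.12 and -7.31 ± 0.34). In bulk tubules, fewer cells of a type and less RNA per cell cannot be told apart, so these levels give neither the number of intercalated cells nor their content of RNA. The exceptions were Atp6v1b2 and Atp6v1g1, general subunits of the proton pump, and the potassium chloride carrier Slc12a7, which were higher in PT-S1 with differences of 1.41 ± 0.21 and 1.45 ± 0.12, of 1.00 ± 0.13 and 1.37 ± 0.12 and of 1.51 ± 0.22 and 0.64 ± 0.27.

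**Figure D3:**
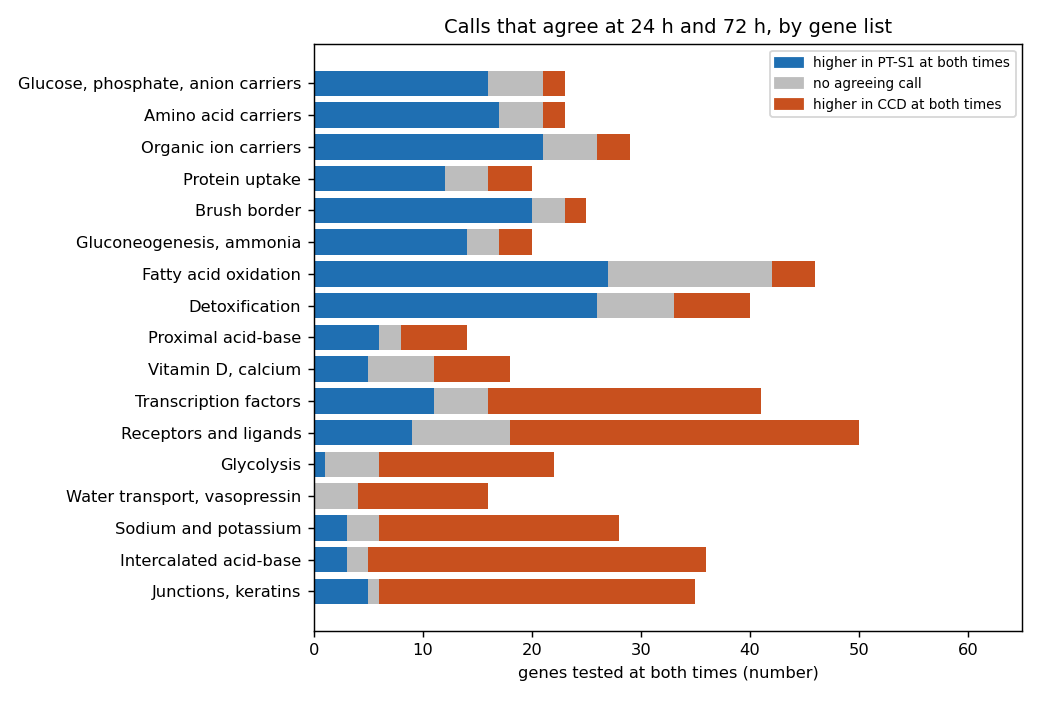
Number of genes of each list that were tested at both times, divided into those called higher in PT-S1 at both times, those called higher in CCD at both times and those without an agreeing call. Transport and metabolic lists of the proximal tubule lie mostly on the PT-S1 side, glycolysis, water, sodium, intercalated and junction lists on the CCD side, against 12.8% and 59.3% of all genes tested.

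Several enzymes, pumps and carriers had a family member on each side. These pairs were picked after their values had been seen. Pklr, the liver form of pyruvate kinase, was higher in PT-S1, at 26.7 and 17.2 TPM in PT-S1 and 0.273 and 0.109 in CCD (4.35 ± 0.18 and 4.01 ± 0.18). Pkm, the form of most other tissues, was higher in CCD, at 3.65 and 6.34 TPM in PT-S1 and 869 and 976 in CCD (-7.65 ± 0.15 and -7.18 ± 0.25). Of the subunits that tune the sodium pump, Fxyd2 had the higher PT-S1 level, at 7432 and 9035 TPM in PT-S1 and 408 and 636 in CCD (4.30 ± 0.28 and 3.96 ± 0.25). Fxyd4 had the higher CCD level, at 16.7 and 39.3 TPM in PT-S1 and 5294 and 4445 in CCD (-8.32 ± 0.16 and -6.79 ± 0.18). Of the B subunits of the proton pump, Atp6v1b1 was higher in CCD, at 0.0800 and 1.27 TPM in PT-S1 and 759.9 and 1209.5 in CCD (-9.39 ± 0.21 and -9.15 ± 0.32). Of its e subunits, Atp6v0e2 was higher in PT-S1 with 4.79 ± 0.25 and 5.07 ± 0.24 and Atp6v0e in CCD with -2.09 ± 0.14 and -2.14 ± 0.15. The G subunit Atp6v1g3 was higher in CCD with -8.58 ± 0.20 and -7.69 ± 0.36. The monocarboxylate carrier Slc16a1 was higher in PT-S1 with 4.95 ± 0.29 and 5.33 ± 0.30, where Slc16a7 was the form higher in CCD.

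Glycolysis as a list lay on the CCD side, and of 24 listed genes, 1 of the 22 members tested at both times were called higher in PT-S1 at both and 16 in CCD (4 and 13 after median-ratio scaling), with median differences of -1.56 and -1.82. Hk1, the hexokinase that traps glucose in the cell, was at 1.28, 0.675 and 1.37 TPM in the PT-S1 animals and 271, 312, 285 and 377 in the CCD animals at 24 h. The values at 72 h were 0.550, 1.48, 3.25, 0.700 and 0.743 TPM in PT-S1 and 252, 362, 312 and 359.7 TPM in CCD. The animals did not overlap, and the differences were -7.23 ± 0.17 and -7.14 ± 0.31. Pgam2, the muscle form of phosphoglycerate mutase, measured 0.538 and 1.19 TPM in PT-S1 and 461 and 539 in CCD (-8.25 ± 0.17 and -8.10 ± 0.29). Pfkp, the platelet form of phosphofructokinase, was at 5.18 and 10.7 TPM in PT-S1 and 275 and 247 in CCD (-5.54 ± 0.12 and -4.72 ± 0.32). Pfkfb3, which makes the activator of phosphofructokinase, was at 0.901 and 0.592 TPM in PT-S1 and 109.7 and 92.3 in CCD (-5.85 ± 0.29 and -5.83 ± 0.23). In TPM as deposited Gapdh at 0.44 ± 0.15 and 0.07 ± 0.16, Ldha at 0.04 ± 0.15 and 0.07 ± 0.12 and Tpi1 at -0.16 ± 0.12 and -0.33 ± 0.11 had no agreeing call, and after median-ratio scaling these 3 genes were called higher in PT-S1 at both times. In TPM as deposited Pklr was the only member called higher in PT-S1.

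**Figure D4:**
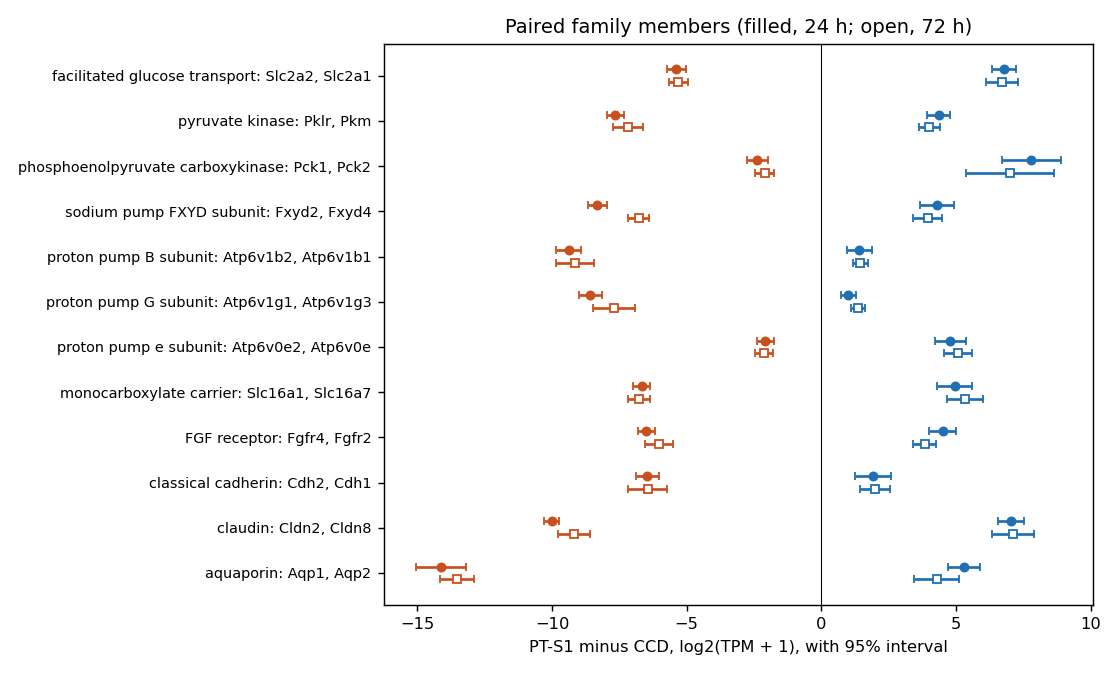
Differences of 12 pairs of family members, PT-S1 minus CCD on the log2(TPM + 1) scale, with points for the estimates and bars for their 95% intervals. The member on the PT-S1 side lies right of 0 and its partner left of 0 at both times in each pair, with Slc2a2 at 6.78 and 6.71 beside Slc2a1 at -5.38 and -5.31.

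Genes of cell contacts lay mostly on the CCD side. Of 40 listed genes of junctions and keratins, 5 of the 35 members tested at both times were called higher in PT-S1 at both and 29 in CCD (5 and 28 after median-ratio scaling), with median differences of -2.50 and -2.50. Cldn2, the claudin that forms the cation and water pore of the proximal tubule, measured 433 and 266 TPM in PT-S1 and 2.44 and 1.36 in CCD (7.04 ± 0.21 and 7.11 ± 0.35). Cldn10 was at 183 and 309.8 TPM in PT-S1 and 19.5 and 3.84 in CCD (4.51 ± 0.55 and 6.95 ± 0.53). Cldn8 and Cldn4 tighten the barrier to ions. Cldn8 was at 0.0611 and 0.736 TPM in PT-S1 and 1104 and 784 in CCD (-10.02 ± 0.13 and -9.20 ± 0.27). Cldn4 was at 0.0100 and 0.0647 TPM in PT-S1 and 366 and 342 in CCD (-8.40 ± 0.22 and -8.15 ± 0.29). Cdh1, E-cadherin, had 8.23 and 5.29 TPM in PT-S1 and 738 and 505 in CCD (-6.47 ± 0.19 and -6.46 ± 0.33). Cdh2, N-cadherin, was at 7.03 and 4.58 TPM in PT-S1 and 0.585 and 0.373 in CCD (1.93 ± 0.30 and 1.99 ± 0.25). Epcam, an epithelial adhesion protein, had differences of -9.14 ± 0.15 and -8.68 ± 0.28. Of 7 keratin genes tested at both times, 6 were higher in CCD and 0 in PT-S1, led by Krt7. Krt7 was at 0.148 and 0.725 TPM in PT-S1 and 603 and 732 in CCD (-9.05 ± 0.15 and -8.88 ± 0.19). Krt18 was at 1.76 and 3.53 TPM in PT-S1 and 759 and 783 in CCD (-8.19 ± 0.13 and -7.59 ± 0.30).

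Transcription factors known for nephron segments were called in both directions. Of 51 listed genes, 11 of the 41 members tested at both times were called higher in PT-S1 at both and 25 in CCD (12 and 22 after median-ratio scaling), with median differences of -1.18 and -1.62. Among all genes tested at both times, 12.8% were called higher in PT-S1 and 59.3% in CCD. In TPM as deposited the CCD share of the list was near the latter and its PT-S1 share above the former. After median-ratio scaling 23.3% and 30.7% of all genes were called, and the 22 of 41 members higher in CCD lay above the latter. Hnf4a, a nuclear receptor of proximal tubule and liver, was at 195, 103 and 114 TPM in the PT-S1 animals and 1.62, 1.30, 0.800 and 1.55 in the CCD animals at 24 h. In PT-S1 at 72 h they were 105, 95.6, 134, 96.0 and 107 TPM, against 1.96, 0.960, 0.170 and 0.153 TPM in CCD. Every PT-S1 animal was above every CCD animal, and the differences were 5.80 ± 0.20 and 6.03 ± 0.25. Nr1h4, the bile acid receptor, measured 169 and 132 TPM in PT-S1 and 3.01 and 1.44 in CCD (5.52 ± 0.29 and 6.01 ± 0.36). Ppara, the regulator of fatty acid oxidation, was at 98.6 and 51.1 TPM in PT-S1 and 4.52 and 7.83 in CCD (4.16 ± 0.14 and 2.59 ± 0.18). Maf was at 17.8 and 22.9 TPM in PT-S1 and 0.574 and 0.922 in CCD (3.44 ± 0.25 and 3.57 ± 0.18). On the CCD side after Foxi1 came Gata2 at 0.783 and 1.00 TPM in PT-S1 and 269 and 273 in CCD (-7.35 ± 0.18 and -7.08 ± 0.25). Gata3 was at 0.0639 and 0.0523 TPM in PT-S1 and 140.1 and 123 in CCD (-7.05 ± 0.13 and -6.84 ± 0.16). Ehf had differences of -7.79 ± 0.13 and -7.00 ± 0.15 and Tfap2b of -5.42 ± 0.18 and -5.32 ± 0.21. Tfcp2l1, which is needed for the mixture of cells in the duct, was at 46.0 and 24.6 TPM in PT-S1 and 538 and 382 in CCD (-3.59 ± 0.18 and -3.82 ± 0.21), and Grhl2, a regulator of epithelial tightness, at -4.78 ± 0.15 and -4.58 ± 0.18.

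The Hox genes, which set position along the body axis and remain expressed in the adult kidney, divided by cluster. Of 39 Hox genes in the tables, 19 were tested at both times. Of these, 7 were called higher in PT-S1 and 12 in CCD (7 and 11 after median-ratio scaling). The genes higher in PT-S1 were Hoxa5, Hoxa7, Hoxa9, Hoxa10, Hoxc6, Hoxc9 and Hoxc10, and the tested genes of the Hoxb and Hoxd clusters were all called higher in CCD, Hoxb3 not at both times after that scaling. Antisense genes such as Hoxb5os and Hoxd3os1 lie in these clusters, and the counting is not stated to use strand, so that reads of overlapping partners cannot be told apart. Hoxa10 measured 88.6, 57.7 and 52.2 TPM in the PT-S1 animals and 2.38, 5.56, 1.79 and 2.25 in the CCD animals at 24 h. Levels at 72 h were 53.9, 50.4, 49.3, 48.4 and 50.3 TPM in PT-S1 and 3.06, 1.44, 4.01 and 3.01 TPM in CCD. Its differences were 4.06 ± 0.27 and 3.80 ± 0.18, with no overlap of the animals. Hoxd8 measured 12.7, 10.3 and 7.70 TPM in the PT-S1 animals and 205, 213, 372 and 193 in the CCD animals at 24 h. At 72 h the PT-S1 animals were at 7.16, 8.62, 7.54, 10.2 and 10.1 TPM and the CCD animals at 206, 328, 241 and 297 TPM. It had differences of -4.47 ± 0.24 and -4.80 ± 0.16, again with no overlap. Hoxa9 was at 56.6 and 47.6 TPM in PT-S1 and 3.73 and 3.17 in CCD (3.75 ± 0.20 and 3.60 ± 0.19). Hoxc10 was at 8.03 and 7.91 TPM in PT-S1 and 0.297 and 0.149 in CCD (2.80 ± 0.19 and 2.95 ± 0.14). Hoxb6 was at 2.99 and 2.72 TPM in PT-S1 and 127 and 110.4 in CCD (-5.03 ± 0.13 and -4.93 ± 0.17). Hoxd3 was at 0.366 and 0.171 TPM in PT-S1 and 37.6 and 44.4 in CCD (-4.81 ± 0.17 and -5.16 ± 0.27). The other 20 Hox genes were below the level needed for a test at 1 time or at both and were not counted.

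**Figure D5:**
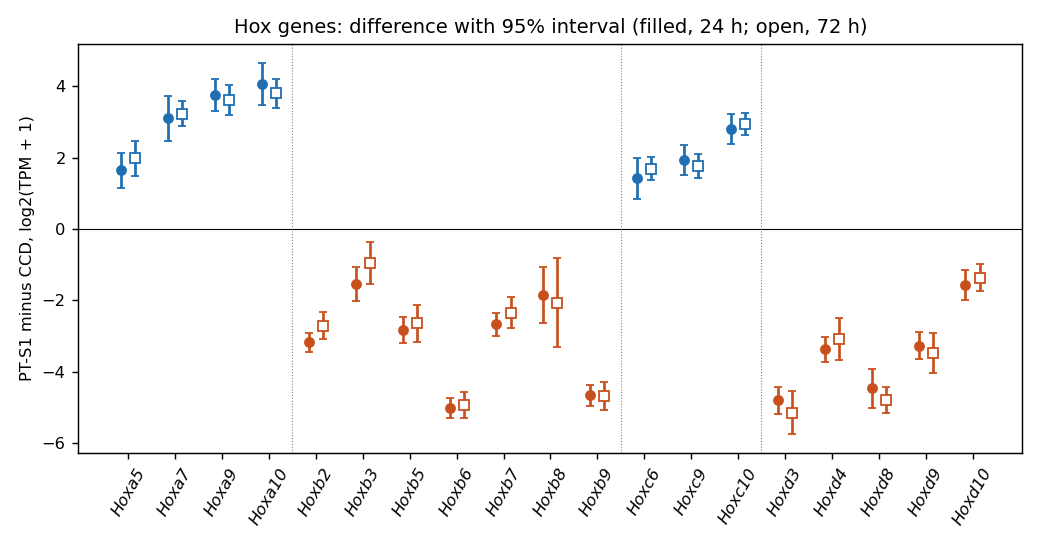
Difference of the 19 Hox genes tested at both times, PT-S1 minus CCD on the log2(TPM + 1) scale, with bars for the 95% interval and dotted lines between the clusters. The tested Hoxa and Hoxc genes lie above 0 and the tested Hoxb and Hoxd genes below 0 at both times.

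Receptors for hormones and growth factors, and their ligands, were also called in both directions. Of 61 listed receptors and ligands, 9 of the 50 members tested at both times were called higher in PT-S1 at both and 32 in CCD (12 and 28 after median-ratio scaling), with median differences of -1.99 and -1.71. In TPM as deposited these shares were near the 12.8% and 59.3% of all genes tested. After median-ratio scaling 23.3% and 30.7% of all genes were called, and the 28 of 50 members higher in CCD lay above the latter. In the narrower set the list held 5 and 21 members, against 5.41% and 11.4% of all genes. Pth1r, the parathyroid hormone receptor, was at 709 and 408 TPM in PT-S1 and 11.8 and 5.81 in CCD (6.53 ± 0.49 and 6.19 ± 0.36). Agtr1a, the angiotensin receptor, was at 45.0 and 38.8 TPM in PT-S1 and 0.423 and 0.838 in CCD (4.96 ± 0.17 and 4.43 ± 0.24). Adra2b, an adrenergic receptor, was at 88.8 and 28.2 TPM in PT-S1 and 0.459 and 0.350 in CCD (5.82 ± 0.16 and 4.43 ± 0.22). On the CCD side, Avpr1a, the second vasopressin receptor, measured 0.0333 and 0.344 TPM in PT-S1 and 165 and 183 in CCD (-7.32 ± 0.13 and -7.07 ± 0.28). Gcgr, the glucagon receptor, was at 0.0130, 0 and 0.180 TPM in the PT-S1 animals and 67.5, 98.9, 50.3 and 61.1 in the CCD animals at 24 h. The values at 72 h were 0.0800, 0, 1.49, 0.267 and 0.253 TPM in PT-S1 and 46.5, 45.2, 79.5 and 83.4 TPM in CCD. Each CCD animal was above each PT-S1 animal, and its differences were -5.99 ± 0.21 and -5.61 ± 0.26. Casr, the calcium-sensing receptor, was at 0.0311 and 0.162 TPM in PT-S1 and 40.2 and 37.3 in CCD (-5.28 ± 0.18 and -4.81 ± 0.34). The fibroblast growth factor receptors divided into Fgfr4 in PT-S1 with 4.5 ± 0.22 and 3.83 ± 0.19 and Fgfr2 in CCD with -6.50 ± 0.14 and -6.02 ± 0.23. Kit and its ligand Kitl were both higher in CCD, with differences of -7.72 ± 0.16 and -6.66 ± 0.25 and of -5.50 ± 0.13 and -3.67 ± 0.19. Gdf15, a secreted stress hormone, was at 10.3 and 9.0 TPM in PT-S1 and 564 and 821 in CCD (-5.72 ± 0.25 and -6.14 ± 0.50). Egf, a product of the thick ascending limb and distal tubule, was at 59.7, 695, 3.92 and 21.4 TPM in the CCD animals at 24 h, where animal 2, high in thick ascending limb markers, was the highest, and at 6.01, 0.720, 2.11 and 2.48 TPM at 72 h, and it had no agreeing call.

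For the respiratory chain, ribosomal proteins and zinc finger genes the counts depended on the scaling, and for ribosomal proteins so did the direction of most calls. Of 81 nuclear genes of the respiratory chain tested at both times, 15 were called higher in PT-S1 and 5 in CCD in TPM as deposited, 70 and 1 after median-ratio scaling, and 15 and 6 after quantile normalization. Of 82 ribosomal protein genes, 2 were called higher in PT-S1 and 8 in CCD as deposited, 53 and 1 after median-ratio scaling, and 22 and 3 after quantile normalization. Of 299 Zfp genes, 4 were called higher in PT-S1 and 259 in CCD as deposited, 11 and 153 after median-ratio scaling, and 17 and 100 after quantile normalization. Cox6a2, the muscle form of a cytochrome oxidase subunit, was higher in PT-S1 at 38.5 and 14.8 TPM in PT-S1 and 0.535 and 0.0775 in CCD (4.70 ± 0.22 and 3.70 ± 0.34). Cox7a1, another muscle form, was higher in CCD at 96.9 and 154 TPM in PT-S1 and 319 and 519 in CCD (-1.79 ± 0.14 and -1.69 ± 0.23). Both kept their call at both times after median-ratio scaling. Ndufb4, a subunit of complex I, had differences of 1.25 ± 0.15 and 0.90 ± 0.16, and Cox7a2l, which helps complexes assemble with each other, -0.93 ± 0.14 and -0.71 ± 0.08, which moved to -0.19 and 0.04 after median-ratio scaling. Zfp36, which destabilises messenger RNA, was at 20.9 and 19.4 TPM in PT-S1 and 686 and 889 in CCD (-5.00 ± 0.20 and -5.40 ± 0.28), and Zfp7 had -3.90 ± 0.16 and -3.61 ± 0.21, while Zfp697 with 0.95 ± 0.15 and 1.11 ± 0.19 and Zfp69 with 1.19 ± 0.15 and 0.91 ± 0.16 lay on the PT-S1 side. Of the ribosomal proteins, Rplp0 had differences of 0.38 ± 0.13 and 0.43 ± 0.08, Rps4l -2.55 ± 0.21 and -2.10 ± 0.24 and Rpl7 -0.76 ± 0.14 and -0.74 ± 0.11, and Rpl7 moved to -0.02 and 0.01 after median-ratio scaling. Of 13 mitochondrially encoded protein genes in the tables, 7 were tested at both times, and 6 of them were called higher in PT-S1 and 0 in CCD (7 and 0 after median-ratio scaling), with mt-Nd5 at 2410.3 and 4179 TPM in PT-S1 and 962 and 1049 in CCD (1.23 ± 0.18 and 1.98 ± 0.39), and mt-Nd6 with 1.52 ± 0.28 and 1.76 ± 0.37, while the other 6 were listed at 0 in all libraries used.

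Some abundant genes were close in both segments in TPM as deposited. For 2695 genes, 20.4% of those tested at both times, the 95% interval of the difference lay within 1 log2 unit of 0 at both times. The most abundant of them were Atp5b, Cox6a1, Cox8a and Uqcr11, which encode subunits of ATP synthase, cytochrome oxidase and the bc1 complex. Atp5b was at 5544 ± 406 and 5459 ± 322 TPM in PT-S1 and 6186 ± 377 and 6719.9 ± 1031 in CCD (-0.17 ± 0.11 and -0.29 ± 0.12). Cox8a was at 2571 ± 363 and 2917 ± 398 TPM in PT-S1 and 2759 ± 188 and 3514 ± 499 in CCD (-0.20 ± 0.13 and -0.26 ± 0.13). Uqcr11 measured 2634 ± 622 and 2959.8 ± 136 TPM in PT-S1 and 2518 ± 59.2 and 2964 ± 582 in CCD (-0.09 ± 0.17 and 0.02 ± 0.12). Cox6a1 was at 3596 ± 659.9 and 3330.2 ± 548 TPM in PT-S1 and 2192 ± 143 and 2643 ± 529 in CCD (0.60 ± 0.15 and 0.35 ± 0.15). These statements hold for TPM as deposited, in which Cox6a1 was called higher in PT-S1 at 24 h and Atp5b higher in CCD at 72 h. The genes within 1 log2 unit were not counted again after median-ratio scaling. All 4 genes were then called higher in PT-S1 at both times, Atp5b with 0.58 and 0.46, Cox8a with 0.54 and 0.50, Uqcr11 with 0.65 and 0.77, and Cox6a1 with 1.35 and 1.10. Of these, the differences of Cox6a1 exceeded 1 log2 unit.

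The segment difference itself changed with time for 169 of 13202 genes (1.28%), tested in a model of all 4 groups. Among genes with a mean of at least 10 TPM in a group, the 4 of smallest p were Airn, Depp1, Car3 and Kitl. Depp1, a gene induced by fasting and FOXO factors, was at 21.8, 10.2 and 13.7 TPM in the PT-S1 animals and 8.68, 9.45, 15.9 and 6.92 in the CCD animals at 24 h. In PT-S1 at 72 h they were 187, 75.2, 55.2, 58.2 and 157 TPM, against 3.63, 1.23, 1.58 and 2.06 TPM in CCD. The PT-S1 animals overlapped the CCD animals at 24 h and lay above them at 72 h, and the change of the difference, 24 h minus 72 h, was -4.5 ± 0.54, adjusted p = 0.00146 (limma). Airn was at 14.8 and 62.9 TPM in PT-S1 and 2.98 and 3.40 in CCD (1.93 ± 0.18 and 3.85 ± 0.14), a change of -1.93 ± 0.22, adjusted p = 0.00146. It is transcribed antisense to Igf2r, and the kit used does not mark strand, so that its reads and those of Igf2r cannot be told apart where the genes overlap. Car3 was at 42.9 and 204 TPM in PT-S1 and 0.255 and 0.191 in CCD (5.06 ± 0.25 and 7.34 ± 0.16), a change of -2.28 ± 0.30, adjusted p = 0.003. Kitl was at 1.54 and 3.57 TPM in PT-S1 and 110.4 and 56.5 in CCD (-5.50 ± 0.13 and -3.67 ± 0.19), a change of -1.83 ± 0.24, adjusted p = 0.003. The count depended on single animals: it was 347 genes without CCD animal 1 at 72 h, it was 87 without PT-S1 animal 1, 101 without PT-S1 animal 2 and 109 without CCD animal 4 at 72 h, and it lay between 96 and 110 without any one of PT-S1 animals 2 and 3 or CCD animals 1 to 4 at 24 h. Without the 3 libraries of low correlation it was 673, and without the library of PT-S1 animal 3 at 72 h that was high in intercalated cell markers it was 110.

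Of the 22 genes called in opposite directions at both times, Dbp, Slc25a25, Rnase4 and Qk ranked highest by the smaller of both differences. Dbp, a transcription factor driven by the circadian clock, was at 144, 151 and 131 TPM in the PT-S1 animals and 24.4, 18.5, 6.39 and 56.7 in the CCD animals at 24 h. Levels at 72 h were 10.9, 10.8, 9.02, 14.6 and 16 TPM in PT-S1 and 67.9, 57.8, 17.1 and 18.2 TPM in CCD. PT-S1 lay above CCD at 24 h and below it at 72 h, with differences of 2.70 ± 0.53 and -1.45 ± 0.40 and a change of 4.15 ± 0.72, adjusted p = 0.0109 (limma). The clock genes Arntl, Npas2 and Ciart, named after their values were seen, also changed with time. Arntl had differences of -3.98 ± 0.21 and -1.53 ± 0.29, a change of -2.45 ± 0.40, adjusted p = 0.00947. For Npas2 they were -2.49 ± 0.26 and 0.23 ± 0.35, a change of -2.72 ± 0.49, adjusted p = 0.0113. For Ciart they were 2.08 ± 0.16 and -0.57 ± 0.37, a change of 2.65 ± 0.46, adjusted p = 0.0109. The hour of day at which each group was sampled is not in the labels, and its part in these values was not tested. Slc25a25, a mitochondrial carrier of ATP and magnesium, had differences of 1.29 ± 0.32 and -1.69 ± 0.38, Qk, an RNA-binding protein, 1.53 ± 0.24 and -0.94 ± 0.37, and Rnase4, a secreted ribonuclease, -1.01 ± 0.33 and 1.39 ± 0.38. After median-ratio scaling only Slc25a25 of these 4 genes kept opposite calls: Dbp at 72 h was at -0.74, Qk at 72 h at -0.22 and Rnase4 at 24 h at -0.41, all without a call. Qk and Rnase4 also lost their 72 h calls without the library of PT-S1 animal 3 that was high in intercalated cell markers, with -0.84 and 1.14.

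Markers of other cells were present in the dissected tubules and are given as summed TPM per animal. The 7 markers of the S2 segment summed to 3786 to 5366 TPM in PT-S1 at 24 h and 1567 to 8675 TPM at 72 h, with none of them at 0, and the 10 markers of the S3 segment to 1328 to 2219 and 599.6 to 3933 TPM. Single genes made up much of these sums. Cyp4b1 averaged 3224 and 2290 TPM among the S2 markers, and Slc27a2 1689 and 1212 TPM among the S3 markers. At 72 h, Slc7a13, a carrier of the S3 segment, was at 7.45, 35.6, 13.3, 0.700 and 309 TPM in the PT-S1 animals, with animal 5 highest. The 10 thick ascending limb markers summed to 1367 to 6226 TPM in CCD at 24 h and 1073 to 1503 TPM at 72 h, where Kcnj1, which principal cells also express, was the most abundant of them on average. Umod, the defining marker of that segment, was at 702, 3028, 95.1 and 176 TPM in the CCD animals at 24 h and 54.9, 15.6, 13.7 and 15.9 TPM at 72 h, so that it was present in every CCD animal. The 10 endothelial markers summed to 85.6 to 194 and 129 to 329 TPM in PT-S1 and 115 to 256 and 58.0 to 354 TPM in CCD, and the 13 leukocyte markers to 197 to 254 and 176 to 525 TPM against 242 to 479.9 and 178 to 503 TPM. Of the fibroblast and mural cell markers, Dcn was at 0.822 and 3.37 TPM in PT-S1 and 74.4 and 62.5 in CCD (-5.41 ± 0.20 and -4.23 ± 0.51), and Ren1, the renin of the juxtaglomerular cells, was at 160.03, 0.0250, 0.680, 0.0600 and 0.05 TPM in the PT-S1 animals at 72 h. The 8 markers of podocytes summed to at most 38.5 TPM in any animal, and among the 8 markers of the inner medullary duct and urothelium Krt5 was at 0 in all groups. Of the 9 S3 markers tested at both times, Slc27a2 and Aadat were called higher in PT-S1 with 5.19 ± 0.27 and 6.34 ± 0.90 and 4.08 ± 0.39 and 3.94 ± 0.62, Cyp7b1 was called higher in CCD with -5.98 ± 0.15 and -5.74 ± 0.14, and the other 6 had no agreeing call. Of all genes tested at both times, 12.8% were called higher in PT-S1 and 59.3% in CCD (23.3% and 30.7% after median-ratio scaling). Beside these shares, 1 of the 9 thick ascending limb markers so tested was called higher in PT-S1 and 5 in CCD (1 and 4 after scaling). Of the 6 distal convoluted tubule markers, 0 were higher in PT-S1 and 4 in CCD (0 and 1 after scaling). Among them were Ckb of the thick ascending limb and Trpm6 and Wnk1 of the distal convoluted tubule, with -4.74 ± 0.26 and -4.86 ± 0.26, -1.55 ± 0.21 and -1.58 ± 0.19 and -1.27 ± 0.26 and -1.85 ± 0.27, of which Wnk1 had no agreeing call after median-ratio scaling. Cldn1 of parietal cells was higher in PT-S1 with 2.94 ± 0.29 and 2.62 ± 0.23, and Pax2 higher in CCD with -1.45 ± 0.16 and -1.73 ± 0.29, as was Ptprc, the leukocyte antigen CD45, with -2.09 ± 0.24 and -1.62 ± 0.27. Of the 11 leukocyte markers tested at both times, 0 were called higher in PT-S1 and 2 in CCD (0 and 1 after scaling), and 9 had no agreeing call. The part of these other cells in the differences above was not tested, except that the counts without the library high in thick ascending limb markers are those given with the libraries.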

How the data were processed

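Values in TPM were used as the authors deposited them, with 1 table per segment and time, and STAR and RSEM 1.3.3 on GRCm39 are named in the submitters' processing notes. The annotation release is not given in the sources used here. Libraries were made with the SMART-Seq V4 kit, per the labels' protocols, and gene counting is not stated to use strand. Columns were matched to samples by animal number, 13 of the 35 by group and animal only, and tables were joined by gene identifier.

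An animal's value was the mean of its libraries on the log2(TPM + 1) scale. Genes with a mean of both segment means of at least 1 TPM were tested with limma 3.58.1 in R 4.3.3, with a mean-variance trend, per time, two-sided, with Benjamini-Hochberg adjustment over all genes tested. The change with time was a contrast of all 4 sham groups in 1 model. Composition measures were tested by exact permutation over animals. Median-ratio scaling used genes above 1 TPM in every library compared.

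On simulated data, the 24 h model recovered 70 of 100 genes changed by 1 log2 unit and 96 of 100 changed by 2 log2 units among 13779 genes. The 72 h model recovered 82 of 100 and 99 of 100 among 13580 genes. The changed genes were drawn from those at higher levels, and all others were simulated as equal in both segments. Of these others, 10 at 24 h and 13 at 72 h were called. In the deposited values most genes differed, so that these counts do not give the recovery there. The genes named are the 6 markers, the 12 genes a side described with their ranking, at least the 2 highest ranked genes a side of each list discussed, 4 genes called in opposite directions, 4 with the smallest p of the change with time and at least 10 TPM in a group and the 4 most abundant near-equal genes, and genes named outside this rule are said to be so. Some genes that this rule selects are not reported here. The members and lists were chosen with earlier results of these data known, so their counts are descriptions. Promoters came from RefSeq tables of GRCm38.p6, a build other than that of the deposited values.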

Additional observations from a re-analysis of the deposited data

Results flagged for a closer look

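Among groups of 4 or 5 animals, 693 combinations of a group with a gene described above or with a composition measure were examined. Of these, 60 (8.66%) held an animal whose gap to the nearest other animal exceeded Dixon's 95% critical value, where chance gives about 5% of groups. The combinations share animals and libraries and are not independent, and levels near 0 take part in the same way as high ones. Values in parentheses are the level of the animal in TPM.

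PT-S1 animal 3 at 72 h was the highest of its group for 23 genes, each of them called higher in CCD at both times: Aqp4 (0.110), Atp4a (1.73), Calb1 (3.04), Casr (0.755), Cldn4 (0.265), Cldn8 (3.25), Defb1 (6.54), Gcgr (1.49), Hsd11b2 (5.84), Kcne1 (0.465), Kcnj1 (3.72), Ptger4 (0.340), Rhbg (2.19), Rhcg (5.26), Scnn1b (1.5), Scnn1g (1.14), Slc1a5 (4.43), Slc4a1 (1.92), Slc4a9 (5.05), Slc8a1 (0.250), Slco4a1 (1.25), Tfap2b (1.05) and Trpv5 (0.125). The sum of the 10 intercalated cell markers was also highest in this animal, at 30.3 TPM, with 54.7 TPM in 1 of its libraries and 5.91 TPM in the other. The former library held the higher level for 20 of the 23 genes, and the latter alone lay above every other PT-S1 animal for 12 of them. PT-S1 animal 1 at 72 h was the highest for Ren1 (160.03). PT-S1 animal 2 at 72 h was the highest for Slc2a1 (16.2). PT-S1 animal 4 at 72 h was the highest for Mcoln3 (0.0100) and Spink1 (1549). PT-S1 animal 5 at 72 h was the highest for Ggt1 (821) and Slc22a6 (415). PT-S1 animal 2 at 72 h was the lowest for Zfp69 (3.36). PT-S1 animal 4 at 72 h was the lowest for Vdr (58.8).

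In CCD, each of the 4 animals was set apart for some gene at both times, most often animal 3 at 24 h and animal 1 at 72 h. The S2 markers summed to 270 TPM in the library of low correlation of CCD animal 1 at 72 h, and to 42.4 TPM in its other library. In CCD animal 4 at 24 h they summed to 207, 26.5 and 242 TPM. The part of such proximal transcripts in these values was not tested. CCD animal 1 at 24 h was the highest for Cldn4 (578) and Slc34a3 (0.200). CCD animal 2 at 24 h was the lowest for Cyp7b1 (56.5). CCD animal 3 at 24 h was the highest for Atp6v1g1 (216), Dcn (106) and Hoxd8 (372) and the lowest for Aadat (1.15), Bdh1 (8.87), Gdf15 (412), Hao2 (1.25) and Ndufb4 (83.7). CCD animal 4 at 24 h was the highest for Fgfr2 (117) and Trpv6 (41.9) and the lowest for Arntl (24.8). CCD animal 1 at 72 h was the highest for Amn (6.29), Atp6v0e (1776), Car2 (2879.7), Hao2 (8.29), Slc5a1 (0.730), Slc9a3 (0.665) and Umod (54.9) and the lowest for Hoxd3 (22.6) and Nedd4l (257). CCD animal 2 at 72 h was the highest for Cox6a2 (0.310) and Cyp7b1 (70.7) and the lowest for Cat (105) and Nr3c2 (51.0). CCD animal 3 at 72 h was the lowest for Slc6a19 (2.06). CCD animal 4 at 72 h was the highest for Cldn8 (869).

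The segment difference changed with time for 16 of the 228 genes described above, by limma's test of the difference itself at an adjusted p under 0.05, where it was 1.28% of all genes tested. Airn, Depp1, Car3, Kitl, Dbp, Slc25a25, Rnase4, Qk, Arntl, Npas2 and Ciart were described because of their change with time or their opposite calls, so that the count does not measure how common such changes are. The change, the difference at 24 h minus that at 72 h on the log2 scale, was above 0 for Adra2b (1.38), Ciart (2.65), Dbp (4.15), Ppara (1.57), Qk (2.47), Slc13a2 (3.46) and Slc25a25 (2.97). It was below 0 for Airn (-1.93), Arntl (-2.45), Car3 (-2.28), Depp1 (-4.5), Fxyd4 (-1.53), Kitl (-1.83), Npas2 (-2.72), Rnase4 (-2.40) and Umod (-4.09).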

How the results depend on the processing

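Of 16141 values of single genes under other settings, 9533 were of results called in the reported analysis, of which 124 lost the call and 7 changed sign. The other 6608 were of results without a call, of which 76 gained 1 and 421 changed sign, 7 of them to a call. After median-ratio scaling, which raises most differences, the called values that changed sign at 72 h were those of Tpi1 (0.43), Atp5b (0.46), Acadl (0.16), Cox7a2l (0.036) and Rpl7 (0.0072), and at 24 h that of Clcn5 (0.26, and 0.37 after quantile normalization). Counts of calls for PT-S1 and CCD were 3824 and 5118 at 24 h, 3772 and 4751 at 72 h and 3079 and 4051 at both after median-ratio scaling. After quantile normalization they were 3844 and 4710, 3787 and 4432, and 3015 and 3762. Of the genes of at least 2 log2 units without overlap, 974 were then higher in PT-S1 and 957 in CCD, where the deposited values gave 714 and 1506. The 714 and 1506 genes of the narrower set were still called under 26 of the 29 alternatives run on them: a minimum of 5 TPM removed 105 and 286 from the test, and 1 gene higher in CCD was lost with no filter on the mean and without PT-S1 animal 2 at 24 h. This set was chosen from the same data for large differences without overlap, which largely fixed beforehand that its calls would be kept.

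The count of genes whose difference changed with time was the least stable, and the cause was not tested: 169 genes became 105 with a pseudocount of 0.1, 419 with each library as a replicate, 398 with a random effect of the animal, 673 without the libraries of low correlation, and 110 without the PT-S1 library high in intercalated cell markers, an alternative chosen after seeing the data. Leaving out 1 animal gave 87 to 347 genes, and 1790 genes passed an unadjusted p of 0.05.

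For the composition at 24 h, leaving out 1 animal gave exact permutation p-values of 0.0667 or 0.1, because fewer animals remain, with PT-S1 minus CCD from -1993 to -1618 genes at 1 TPM or more, 8.34 to 10.4 percentage points for the 10 highest genes and 1.2 to 2.93 points for mitochondrially encoded genes. At 72 h only the mitochondrial share was affected, with p-values of 0.0714 without each CCD animal in turn, and its values ran from 4.85 to 7.75 points over all animals left out.

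Same-numbered animals of both segments did not deviate together, with correlations of -0.170, -0.033 and 0.067 at 24 h and 0.028, 0.110, -0.010 and 0.019 at 72 h, so the numbers were not taken as pairs. With the number as a replicate block, 1582 and 7226 genes were called at both times and 78 genes changed with time. Depth is unknown for TPM, and the 3 to 5 animals a group limit the precision.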

Other observations

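The counts of families below can be read against all genes tested at both times. Of these, 12.8% were called higher in PT-S1 and 59.3% in CCD (23.3% and 30.7% after median-ratio scaling). Of the Slc carrier genes as a family, 239 were tested at both times, 94 were called higher in PT-S1 at both and 87 in CCD (112 and 66 after median-ratio scaling). Of the potassium channel genes (Kcn), 19 were tested at both times, 5 were called higher in PT-S1 at both and 10 in CCD (6 and 10 after median-ratio scaling). Kcnj15 had differences of 6.67 ± 0.36 and 6.87 ± 0.36 and Kcnk5, a channel that carries potassium out beside bicarbonate transport, 5.32 ± 0.20 and 4.96 ± 0.23, both higher in PT-S1. Of the glucuronyltransferase genes (Ugt), 12 were tested at both times, 10 were called higher in PT-S1 at both and 2 in CCD (10 and 1 after median-ratio scaling), and Ugt3a2 had 6.44 ± 0.29 and 7.54 ± 0.77 and Ugt1a6a, higher in CCD, -1.21 ± 0.18 and -1.41 ± 0.25. The Ugt1a genes share exons, and reads may have been split between them. Of the organic anion carriers of the Slco family, 7 were tested at both times, 2 were called higher in PT-S1 at both and 3 in CCD (2 and 2 after median-ratio scaling), with Slco1a6 at 5.0 ± 0.35 and 5.16 ± 0.39 and the prostaglandin carrier Slco2a1 at 1.66 ± 0.26 and 1.30 ± 0.20. Of the subunit genes of the proton pump (Atp6v), 22 were tested at both times, 3 were called higher in PT-S1 at both and 16 in CCD (4 and 11 after median-ratio scaling), with the d subunit Atp6v0d2 at 0.228 and 1.12 TPM in PT-S1 and 520.4 and 477 in CCD (-8.78 ± 0.15 and -8.02 ± 0.27).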
